A study of Mus musculus with 12 samples.

Results

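Smarcd1 knockout MC38 cells given IFN were compared with untreated wild-type MC38 cells, so the comparison holds the joint effect of 2 changes. MC38 is a mouse colorectal carcinoma line, and the study asked what SMARCD1 does in tumour cells. The comparison used 6 of the 12 samples of the series: 3 libraries of knockout cells with IFN and 3 of wild-type cells without it. The remaining 6, of which 3 came from untreated knockout cells and 3 from IFN-treated wild-type cells, serve here to split the joint effect into its steps. The knockout was made with an sgRNA, a guide that directs a nuclease to the gene. The number of knockout clones, the use of a control guide, the kind of IFN, its dose and its duration are not stated in the sources at hand. Samples were taken by their titles. For the 6 libraries compared, titles and genotype and treatment labels match, while for the other 6 these labels exchange the untreated knockout and the IFN-treated wild type. The joint effect and the test of additivity do not depend on which is right, but the split into steps does.

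SMARCD1, also called BAF60A, is a subunit of the SWI/SNF complexes, which use ATP to move and evict nucleosomes and so open promoters and enhancers. Interferons act through JAK kinases. Type I interferons activate a transcription factor complex that binds the interferon-stimulated response element (ISRE) in promoters of antiviral genes such as Mx1 and the Ifit genes, and IFN-gamma activates factors that bind the gamma-activated site (GAS) in promoters of genes such as Irf1 and Irf8. Many tumour lines keep low interferon signalling through IFN-beta that they make themselves, and PD-L1, the product of Cd274, is a target of that signalling.

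The promoters of Cd274 and of genes with large effects in the classes described below are shown so that the motif content of restored, overshot and unrestored genes can be read beside their values. They are RefSeq sequences on GRCm38.p6, from 250 bases before to 50 after the annotated start, 5′ to 3′ on the gene's strand. Capitals mark matches to the ISRE core GAAANNGAA, whose reverse complement is TTCNNTTTC, or to the GAS motif TTCNNNGAA, which is its own reverse complement. Both strands were searched, and matches may overlap. Of the 32851 promoters in the table, 8.56% held an ISRE core and 8.3% a GAS motif. The table held promoters for 65.8% of the genes tested, under the 80% needed to compare classes, so that comparison is void and shares by class are not given.
Gbp3, chr3:142559794-142560093, plus strand: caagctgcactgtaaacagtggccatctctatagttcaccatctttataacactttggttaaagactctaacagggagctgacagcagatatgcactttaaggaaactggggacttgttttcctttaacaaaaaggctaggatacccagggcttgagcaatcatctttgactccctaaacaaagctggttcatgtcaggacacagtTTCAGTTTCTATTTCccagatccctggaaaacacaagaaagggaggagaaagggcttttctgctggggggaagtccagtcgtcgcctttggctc
Clec2d, chr6:129180365-129180664, plus strand: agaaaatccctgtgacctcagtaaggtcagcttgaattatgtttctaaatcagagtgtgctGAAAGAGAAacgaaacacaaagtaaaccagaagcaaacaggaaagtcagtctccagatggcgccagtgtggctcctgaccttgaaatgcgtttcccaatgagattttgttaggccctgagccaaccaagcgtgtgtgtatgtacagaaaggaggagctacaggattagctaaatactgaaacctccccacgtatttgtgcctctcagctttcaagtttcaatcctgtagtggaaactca
Irf8, chr8:120736108-120736407, plus strand: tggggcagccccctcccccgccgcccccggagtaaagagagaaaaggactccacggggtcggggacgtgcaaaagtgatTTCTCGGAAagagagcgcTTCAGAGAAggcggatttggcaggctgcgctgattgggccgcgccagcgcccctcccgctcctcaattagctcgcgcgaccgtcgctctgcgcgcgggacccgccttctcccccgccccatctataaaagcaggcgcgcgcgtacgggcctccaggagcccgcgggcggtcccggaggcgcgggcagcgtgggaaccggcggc
Serpina3g, chr12:104235897-104236196, plus strand: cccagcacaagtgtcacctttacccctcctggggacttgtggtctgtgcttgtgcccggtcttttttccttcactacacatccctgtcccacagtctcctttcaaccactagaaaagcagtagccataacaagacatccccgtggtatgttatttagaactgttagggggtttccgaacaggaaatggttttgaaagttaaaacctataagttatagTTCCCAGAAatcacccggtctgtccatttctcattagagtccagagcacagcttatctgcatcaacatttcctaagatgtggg
Cd274, chr19:29367188-29367487, plus strand: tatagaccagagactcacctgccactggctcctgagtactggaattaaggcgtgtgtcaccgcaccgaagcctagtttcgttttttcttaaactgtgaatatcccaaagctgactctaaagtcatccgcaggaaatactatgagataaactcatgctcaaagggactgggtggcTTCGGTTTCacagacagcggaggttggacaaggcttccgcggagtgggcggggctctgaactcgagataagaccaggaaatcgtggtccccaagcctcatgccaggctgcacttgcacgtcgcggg
Fhl1, chrX:56779433-56779732, plus strand: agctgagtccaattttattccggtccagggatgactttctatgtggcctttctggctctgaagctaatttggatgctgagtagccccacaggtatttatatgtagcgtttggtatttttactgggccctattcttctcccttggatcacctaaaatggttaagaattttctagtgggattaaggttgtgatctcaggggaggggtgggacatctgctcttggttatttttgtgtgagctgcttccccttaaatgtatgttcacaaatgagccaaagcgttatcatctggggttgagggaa
Ifi213, chr1:173599223-173599522, minus strand: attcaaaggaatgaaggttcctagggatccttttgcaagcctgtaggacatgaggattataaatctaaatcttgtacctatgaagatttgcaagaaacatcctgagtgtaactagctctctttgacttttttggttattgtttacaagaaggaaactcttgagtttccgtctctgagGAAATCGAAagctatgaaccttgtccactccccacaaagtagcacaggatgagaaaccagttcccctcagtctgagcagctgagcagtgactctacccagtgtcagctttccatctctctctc
Gbp3 and Clec2d were restored by IFN, Irf8, Serpina3g and Cd274 overshot, and Fhl1 and Ifi213 were not restored. Gbp3 held 2 overlapping ISRE cores at positions -44 and -38 from the start, Clec2d held 1 at -189, Cd274 1 at -76 and Ifi213 1 at -73. Irf8 held 2 GAS motifs at -171 and -153 and Serpina3g 1 at -33. The window of Fhl1 held neither motif. The table lists 2 promoters each for Gbp3, Irf8 and Fhl1, of which the 1 farther upstream is shown and the other was not searched here, and GENCODE starts Fhl1 upstream of its window, at chrX:56731787. The promoters shown are too few to compare the classes by motif. A match is a description of the letters only.

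Libraries held 31752685 to 45721356 counts and the 16676 genes with enough counts were tested. Nothing in the labels says that the 3 libraries of a group were separate cultures, so p-values measure only the spread between these libraries. Untreated wild-type replicate 2 stood apart, with 4.82% of its counts on mitochondrial genes against 1.61% and 1.62% in the others of its group, and untreated knockout replicate 1 lay apart from its group on a principal component. Main counts below are also given without these 2 libraries. Wild-type replicate 3 with IFN, kept in those counts, also differed from its group, with 2.63% on mitochondrial genes against 1.52% and 1.66%. The knockout libraries with IFN were at 2.62%, 2.67% and 2.99%. They held 37270418 to 44174663 counts, against 32507348 to 36394538 in the untreated wild type. The part of these differences in the joint effect was not tested. Of the defining markers checked, Cd3e, Adgre1, Epcam and Cdx2 had 0 counts in every library and Ptprc had 47 in all 12 together. Krt8 reached at most 0.458 CPM (counts scaled to the library's TMM-adjusted total). The epithelial markers Epcam, Cdx2 and Krt8 thus did not mark this line, while the mesenchymal gene Vim lay at 1210 to 1650 CPM. Other markers were not empty. Epithelial Cdh1 lay at 1.08 to 4.42 CPM and fibroblast Dcn at 27.8 to 180 CPM. Endothelial Cdh5 lay at 0.627 to 1.98 CPM and Pecam1 at 0.434 to 1.16 CPM. Summed markers of T and NK cells were at 0.812 to 1.53 CPM in untreated wild-type libraries and 0.0538 to 0.441 CPM in the knockout with IFN, those of B cells at 11.6 to 57.3 and 3.86 to 4.47 CPM, and those of macrophages and dendritic cells at 36.1 to 40.3 and 35 to 36.6 CPM. Of the 8 B cell markers, 4 had 0 counts in the untreated wild type and 5 in the knockout with IFN. Of the 3 B cell markers tested, 2 were lower and 0 higher in this comparison. The defining B cell marker Cd79a went the other way, with 11 and 25 counts, and reached at most 0.421 CPM. In bulk RNA, fewer cells of a type and less RNA per cell cannot be told apart.

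The targeted gene, Smarcd1 (chr15:99702129-99713991 on GRCm38, plus strand), stood at 85.1, 106 and 81.8 CPM in the untreated wild type, against 58.7, 60.2 and 60.6 CPM in the knockout with IFN. The groups did not overlap. It was at 49.4, 50 and 54.9 CPM in the libraries titled untreated knockout and at 86.5, 99.6 and 123 CPM in those titled wild type with IFN, so its level went with the titles. Its joint log2 fold change was -0.60 ± 0.128 (SE, 3 against 3 libraries; edgeR quasi-likelihood test, Benjamini-Hochberg adjusted p = 0.00433), so transcript remained, and IFN did not change it detectably (0.22 ± 0.128, adjusted p = 0.314). Another gene's exons cover 12.7% of its exonic bases on the opposite strand. Gene counts do not show what the remaining transcript encodes.

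Cd274, which encodes the checkpoint ligand PD-L1 (chr19:29367455-29388095, plus strand), overshot. It was at 18.7, 18.9 and 16 CPM in untreated wild-type cells, fell to 2.77, 3.11 and 2.36 CPM in the untreated knockout, and reached 37.9, 40.2 and 41.5 CPM in the knockout with IFN. All 3 knockout libraries with IFN lay above all untreated wild-type libraries. The joint log2 fold change was 1.16 ± 0.108 (adjusted p = 8.11e-06), or 2.23-fold. Wild-type cells with IFN stood higher still, at 113, 102 and 120 CPM. The IFN step was larger in knockout than in wild-type cells, 3.86 against 2.65 on the log2 scale, and the difference of 1.22 ± 0.159 passed the test (adjusted p = 0.00127). The exons of another gene cover 14.1% of its exonic bases on the opposite strand.

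**Figure D1:**
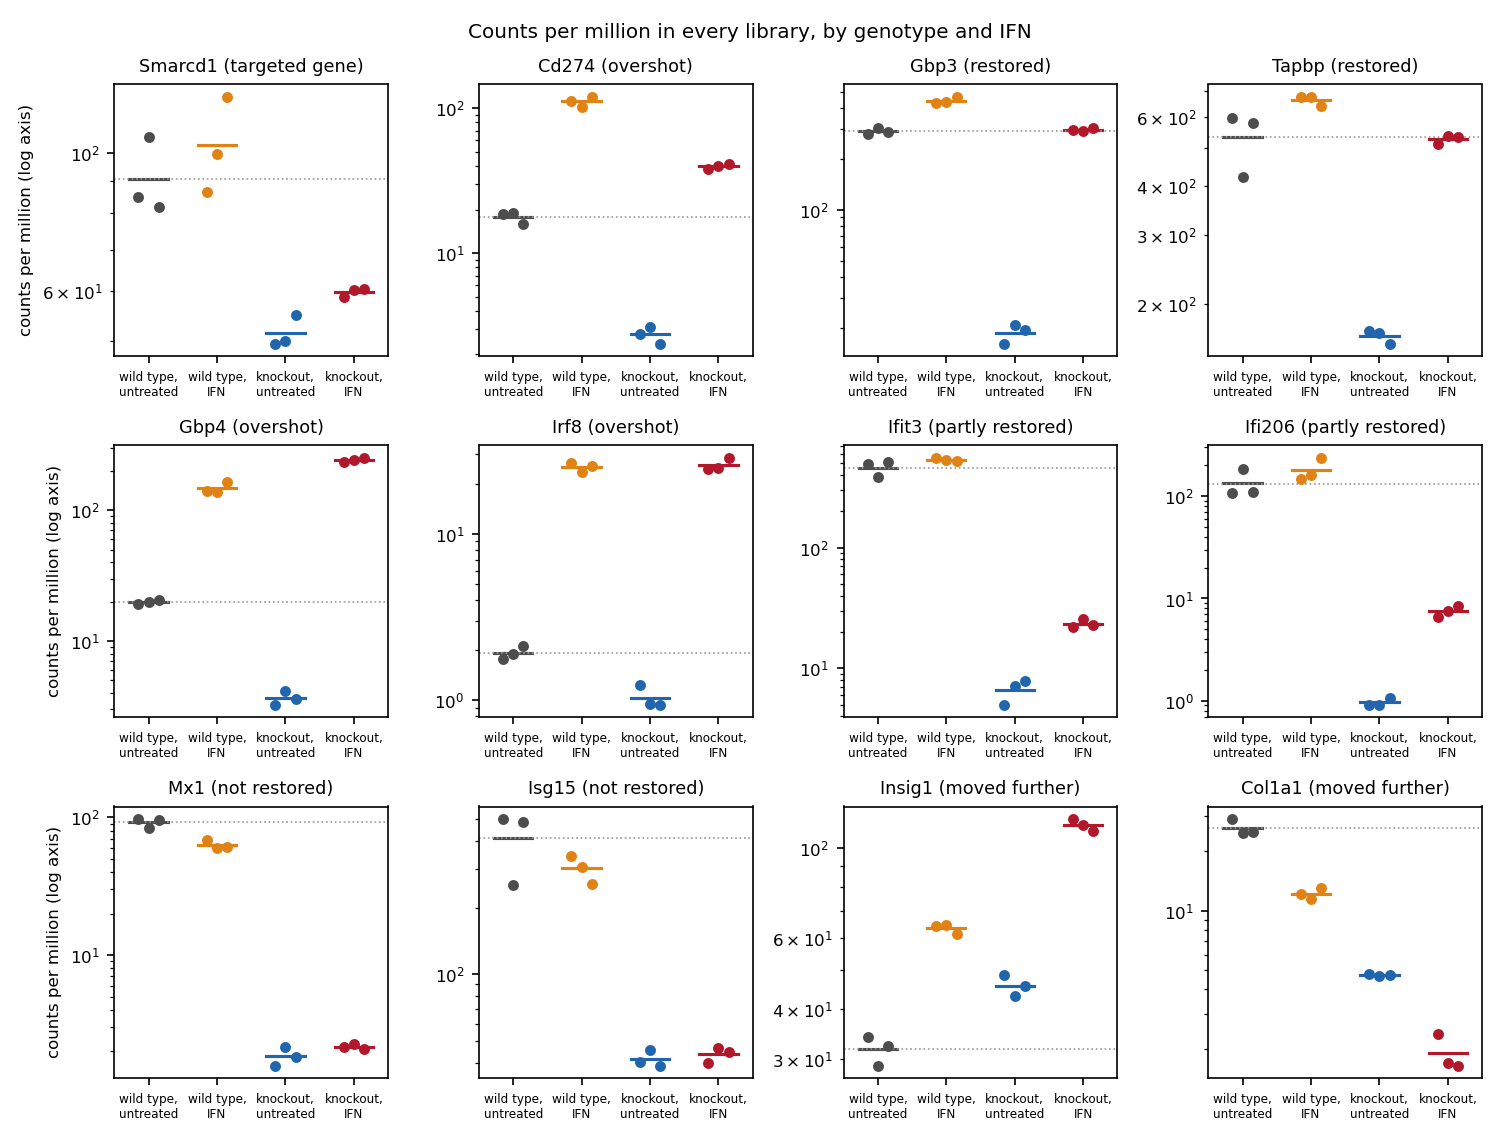
CPM on a log axis in each of the 12 libraries for 12 genes; points are libraries, short lines are group means (n = 3), and the dotted line is the mean of untreated wild-type cells. Gbp3 and Tapbp return to the dotted line in knockout cells with IFN, Gbp4, Irf8 and Cd274 pass it, Ifit3, Ifi206, Mx1 and Isg15 stay below it, and Insig1 and Col1a1 move farther from it than either change alone takes them.

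Against untreated wild-type cells, 1658 genes were higher and 2519 lower in knockout cells with IFN. These are 9.94% and 15.1% of the genes tested, or 25% called in all, and the libraries of the 2 groups did not overlap for 44% of genes. Large changes were mostly decreases. At 2-fold or more, 287 genes rose and 1174 fell, and at 4-fold or more 54 rose and 560 fell, while the median of all genes was -0.0073 (log2). Without the 2 libraries that stood apart, 2493 rose and 3090 fell.

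The increases named here are the largest among genes that averaged 2 CPM or more and whose groups did not overlap. Serpina3f, a serine protease inhibitor, had 0 counts in every untreated wild-type library and 29.6, 31.4 and 32.6 CPM in knockout cells with IFN, at least 1070-fold higher when the 0 is set to 3 counts for the whole group. Gja4, which encodes a gap junction protein, rose from 1.22, 1.1 and 1.19 CPM to 32.7, 33.7 and 32.9 CPM, a log2 fold change of 4.82 ± 0.159. Follistatin (Fst), a secreted antagonist of activins, rose by 4.30 ± 0.108. Irf8 (3.75 ± 0.128), Serpina3g (3.63 ± 0.257), Gbp4 (3.60 ± 0.094), Sspo (3.52 ± 0.275) and the complement gene C4b (3.44 ± 0.145) completed the 8 largest increases within those limits. Sspo, which encodes SCO-spondin, a secreted glycoprotein, differed from the other 7 in that neither IFN step passed the test. It stood at 1.02 ± 0.219 CPM (SD, n = 3) in untreated wild-type and at 11.7 ± 0.763 CPM in knockout cells with IFN, and at 9.08 CPM on average in the untreated knockout.

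Within the same limits, the genes that fell most were led by Fhl1, a LIM-domain protein, at 9.77, 7.46 and 8.85 CPM in the untreated wild type and 0 counts in every knockout library with IFN, at least 347-fold lower. Ifi213, of the PYHIN family of DNA sensors, fell from 13.9, 26.8 and 16.2 CPM to 0, 0 and 0.156 CPM. Ms4a4d, of the four-span membrane family that includes CD20, fell from 16.6, 24.9 and 15.4 CPM to 0.135, 0.323 and 0.104 CPM. No library of either group came near the other for these 3 genes. Mx1 (-5.41 ± 0.117) and Mx2 (-4.71 ± 0.217), of a family of antiviral GTPases, the antiviral enzyme viperin (Rsad2, -4.76 ± 0.325) and the neuronal receptor Lingo1 (-4.98 ± 0.505) were also among the 8 largest decreases within those limits. So was Pcdhga4, a protocadherin, at -5.04 ± 1.409, but it shares 66.8% of its exonic bases with other genes of its cluster and its level in wild-type cells ranged from 0.458 to 23.6 CPM, so its value is uncertain. GENCODE lists Mx2 as a polymorphic pseudogene, and what the Mx transcripts of these cells encode was not tested.

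The joint effect is the sum, on the log2 scale, of the knockout step in untreated cells and the IFN step in knockout cells. These steps share the untreated knockout libraries with opposite signs. The knockout step called 1073 genes higher and 1762 lower (6.43% and 10.6% of genes), and the IFN step in knockout cells 913 higher and 1214 lower (5.47% and 7.28%). Of the 2835 genes changed by the knockout, 1394 (49.2%) were not restored: the IFN step did not pass the test and they were still called on the same side of wild type. Another 578 were moved back by IFN. Of these, 257 were restored, 103 overshot and 136 were partly restored, and for 82 the joint effect did not pass the test while its interval was too wide to call them restored. IFN moved 225 farther in the direction of the knockout. For the other 638, neither the IFN step nor the joint effect passed the test. Grouped by the genotype and treatment labels instead, the counts were 788 not restored, 193 restored, 76 overshot, 50 partly restored and 174 moved farther. Without the 2 libraries that stood apart they were 1557 not restored, 301 restored, 120 overshot, 190 partly restored and 320 moved farther. The IFN step called 1361, 1352 or 1349 genes without knockout replicate 1, 2 or 3 with IFN, against 2127 with all libraries.

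**Figure D2:**
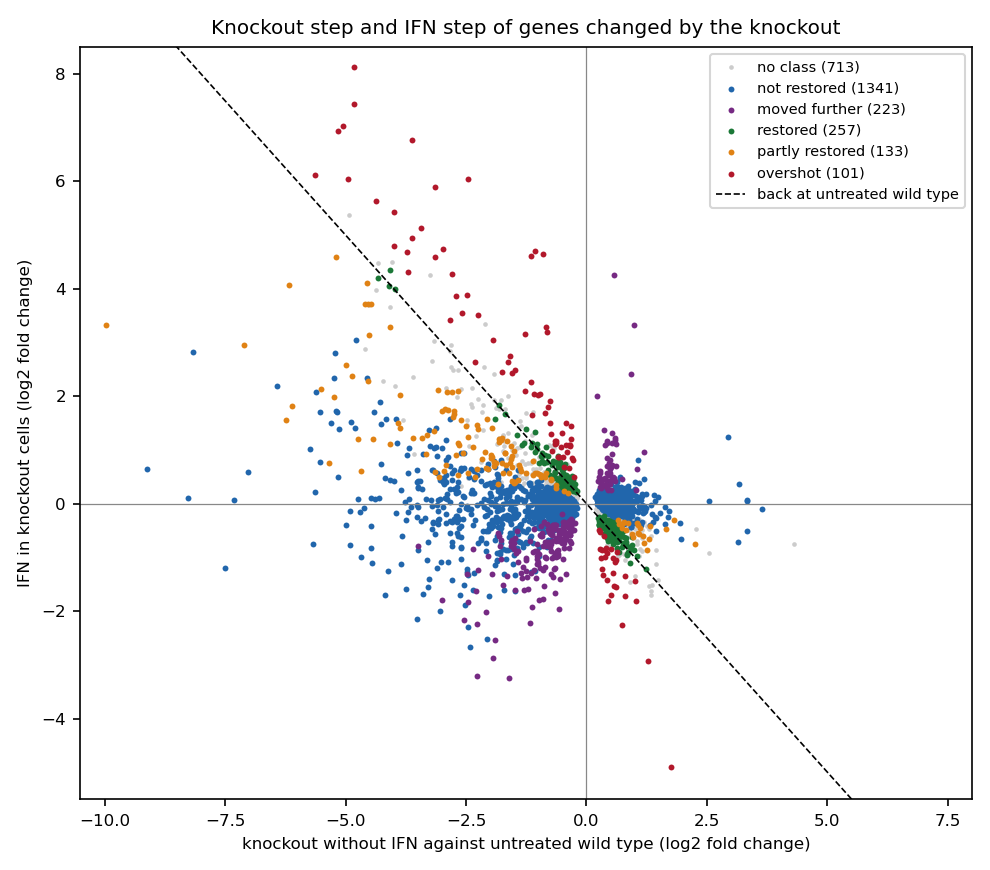
Each point is a gene changed by the knockout without IFN, with the knockout step on the x axis and the IFN step in knockout cells on the y axis, both log2 fold changes; 2768 genes are plotted and 67 with a group at or near 0 counts are not. Restored genes lie near the dashed line, where both steps cancel, overshot genes lie beyond it and genes that were not restored lie near the horizontal zero line.

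Restored genes were those moved by the knockout, moved back by IFN, and left with a 95% interval of the joint effect within 1.5-fold of untreated wild type. There were 257, of which 108 came back from below and 149 from above. The count was 153 without untreated knockout replicate 1 and 133, 139 or 145 without knockout replicate 1, 2 or 3 with IFN. Gbp3, an interferon-induced GTPase, was at 283, 304 and 289 CPM in the untreated wild type, at 16, 20.7 and 19.3 CPM in the untreated knockout and at 297, 295 and 305 CPM in the knockout with IFN. Its libraries in the knockout with IFN overlapped those of untreated wild type, and its joint log2 fold change was 0.03, with a 95% interval from -0.16 to 0.23. Tapasin (Tapbp), which loads peptides onto MHC class I, went from 534 to 166 and back to 528 CPM on average. Exons of other genes cover 29% of its exonic bases. The lectin gene Clec2d returned from 2.84 to 10.1 CPM against 9.99 CPM in wild-type cells. The hyaluronan synthase gene Has2 and the nuclear body gene Sp140 had joint log2 fold changes of -0.18 and -0.24, neither past the test, and exons of other genes cover 26.5% of Sp140. For Sp140, all knockout libraries with IFN (32.5, 33 and 33.2 CPM) still lay below all untreated wild-type ones (34.3, 46.8 and 35.1 CPM). Genes restored from above included the collagen VI chains Col6a1 (joint log2 fold change -0.04) and Col6a2 (-0.07), the proteoglycan perlecan (Hspg2, 0.01) and Thbs3 (-0.03).

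Overshot genes were those that IFN carried past the untreated wild-type level, and 103 met the rule, 73 from below and 30 from above. The count was 66 without untreated wild-type replicate 3. Gbp2, an interferon-induced GTPase, was at 78, 77.6 and 82.1 CPM in the untreated wild type, 5.13, 7.11 and 7.11 CPM in the untreated knockout and 707, 724 and 691 CPM in the knockout with IFN. All 3 libraries with IFN lay above those of wild-type cells with IFN too, which were at 583, 585 and 565 CPM. Gbp4 went from 20 to 3.65 and then to 242 CPM on average, a joint change of 12.1-fold. Irf8, a transcription factor, was at 1.77, 1.89 and 2.11 CPM in untreated wild-type and 24.4, 24.8 and 28.6 CPM in knockout cells with IFN, where wild-type cells with IFN were at 26.5, 23.6 and 25.6 CPM. These last 2 groups overlapped. The chemokine Cxcl9, which attracts T cells, was at 2.52, 4.64 and 3.17 CPM in the untreated wild type, at 0 counts in every untreated knockout library and at 24.4, 25.8 and 27.8 CPM in the knockout with IFN. It remained below wild-type cells with IFN, at 84.5, 93.6 and 128 CPM. From above, the cholesterol exporter Abca1 went from 5.07, 5.35 and 4.91 CPM to 8.59, 8.58 and 8.51 CPM in the untreated knockout and down to 2.17, 1.75 and 1.43 CPM with IFN, and its joint change was -1.52 ± 0.155. Ctgf, which encodes a matrix-associated growth factor, did likewise at -0.44 ± 0.137 (adjusted p = 0.0347), with 23.2% of its exonic bases under another gene's exons. Of the 18 YAP/TEAD targets tested, 1 overshot. That count was 0 without untreated wild-type replicate 1 or 3 and without knockout replicate 1 or 2 with IFN. It was also 0 with no filter on low counts.

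Partly restored genes numbered 136, of which 114 were below and 22 above untreated wild type, and the count was 88 without knockout replicate 2 with IFN. Ifit3, which encodes an antiviral RNA-binding protein, was at 491, 382 and 509 CPM in the untreated wild type, at 4.96, 7.13 and 7.83 CPM in the untreated knockout and at 22, 25.5 and 22.8 CPM in the knockout with IFN. IFN raised it, but it stayed 19.7-fold below wild type. Its relatives Ifit3b (25.7-fold) and Ifit1 (16.6-fold) stayed as far below. The PYHIN genes Ifi206 and Ifi209 stayed 17.8-fold and 23.8-fold below. Ms4a4d was partly restored by rule, but it had 2 counts in all untreated knockout libraries and 22 in those with IFN, and stayed 101-fold below wild type. The chemokine Cxcl10 came nearer to the wild-type level than these, at 337, 341 and 369 CPM against 490, 576 and 524 CPM, after 13.6, 15.4 and 14.4 CPM in the untreated knockout. The joint log2 fold change of Cxcl10 was -0.60 ± 0.122.

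Genes that were not restored were 935 below and 459 above untreated wild type. Mx1 was at 97.3, 83.6 and 95.9 CPM in the untreated wild type, 1.57, 2.17 and 1.83 CPM in the untreated knockout and 2.17, 2.26 and 2.08 CPM in the knockout with IFN. The groups with and without IFN overlapped in knockout cells, and both lay far below wild type. The ubiquitin-like modifier Isg15 stayed at 40, 46.6 and 44.5 CPM against 503, 252 and 487 CPM, and Usp18, which removes ISG15 and restrains the type I receptor, at 20.7, 21.7 and 21.7 CPM against 307, 224 and 307 CPM. The IFN step of Isg15 was 0.08 ± 0.212 and that of Usp18 -0.07 ± 0.111. Ifnb1, the gene of IFN-beta itself, was at 2.29, 1.24 and 1.71 CPM in the untreated wild type and had 1 count in all 3 knockout libraries with IFN, a ratio of 209 with a 95% counting interval from 37 to 8300. Fhl1, Ifi213, Lingo1, Rsad2 and Pcdhga4, described above, were not restored either. Above wild type, Thbs1, a matrix protein that binds CD36 and CD47, stayed at 41.6, 39.7 and 44.2 CPM against 4.12, 4.5 and 3.54 CPM, and the untreated knockout was already at 42.9, 39.9 and 39.1 CPM.

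Genes that IFN moved farther in the direction of the knockout numbered 225, of which 55 were above and 170 below untreated wild type. The count was 149, 141 or 142 without untreated knockout replicate 1, 2 or 3, and 142 or 144 without knockout replicate 1 or 2 with IFN. Tenm4, a teneurin that mediates cell adhesion, was at 43.3, 43.5 and 33 CPM in the untreated wild type, 9.8, 7.23 and 8.11 CPM in the untreated knockout and 3.2, 3.63 and 3.79 CPM in the knockout with IFN. Each step lowered Tenm4 with no overlap, while wild-type cells with IFN, at 46, 49.8 and 49.1 CPM, lay above the untreated ones. Its joint log2 fold change was -3.50 ± 0.139. Gja4, Fst, Col1a1 and Soat2, whose values are given below, were moved farther as well.

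**Figure D3:**
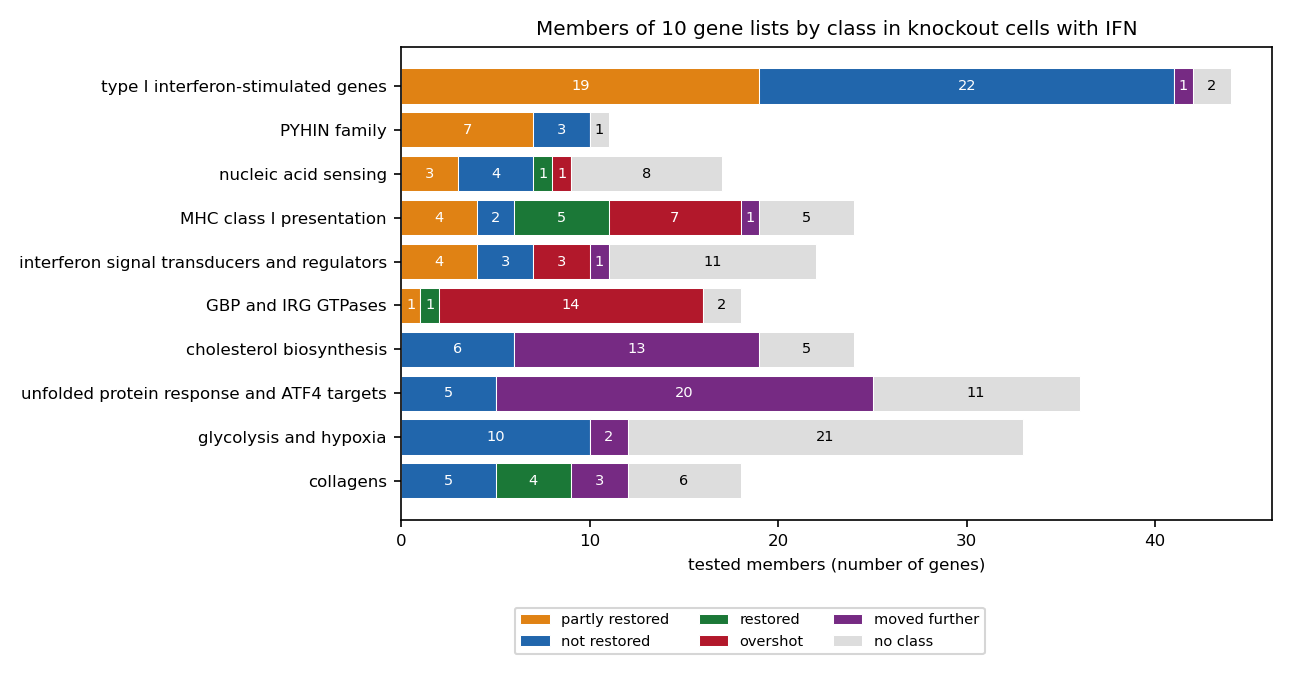
Bars give the number of tested members of 10 gene lists in each class, with the number written in each segment; grey members met no class. The 44 type I interferon-stimulated genes divide into 19 partly restored and 22 not restored, 14 of 18 GBP and IRG GTPases overshot, and 20 of 36 unfolded protein response and ATF4 targets moved farther.

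Members of the interferon system differed by their role. List counts here and below are to be read beside the 9.94% of all genes tested that were higher and the 15.1% that were lower. Of all genes tested, 8.36% were not restored, 1.54% restored, 0.816% partly restored, 0.618% overshot and 1.35% moved farther. Where a list below has 0 genes higher or 0 lower by edgeR's joint test, the number was also 0 at an unadjusted p under 0.05 and by DESeq2. Of 6 tested ligands and receptors, 0 were higher and 3 lower, namely Ifnb1, Il10rb (-0.75) and Ifnar1 (-0.34), while Ifnar2 was restored (-0.24, not past the test) and the IFN-gamma receptor chains Ifngr1 and Ifngr2 were at -0.08 and -0.09. The call of Ifnar1 was lost without untreated wild-type replicate 2 and without each knockout library with IFN, with adjusted p from 0.00703 to 0.0702 over all settings, and 14.9% of Il10rb's exonic bases are shared with another gene. Of 22 transducers and regulators, 9 were higher and 8 lower. Of the IRF family, Irf1 rose by 2.38 ± 0.073 (from 65, 63.5 and 67.1 to 340, 340 and 343 CPM) and Irf8 as above. Stat2 and Irf9, which encode subunits of the complex that binds the ISRE, were partly restored. Stat2 was at 102, 105 and 111 CPM against 189, 180 and 189 CPM (-0.81 ± 0.063) and Irf9 at -0.41 ± 0.074. Irf7, which amplifies type I interferon production, was partly restored as well, at -2.04 ± 0.093. Stat3 rose by 1.51 ± 0.076 without a knockout step (-0.05 ± 0.076), and the feedback inhibitors Socs1 and Socs3 rose by 0.86 and 1.13.

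Among the type I interferon-stimulated genes, 43 of 44 were called below untreated wild type and 0 above it, with a median joint log2 fold change of -2.48 against -0.0073 over all genes. IFN moved 19 of them part of the way, and 0 met the rule for restored or overshot. Their median IFN step was 0.41 in knockout and -0.06 in wild-type cells. The member not called, Epsti1, was at 1.14. Of the 43, the poly-ADP-ribosyltransferase genes came closest to wild type, with Parp10 at -0.52, Parp12 at -0.62 and Parp14 at -0.95. Exons of other genes cover at most 4.8% of these. Of 11 PYHIN genes, 10 were lower and 0 higher, 7 of them partly restored, from Ifi213 at -8.47 to Ifi203 at -0.82, and Aim2, the DNA sensor of an inflammasome, was at -3.37. In nucleic acid sensing, 7 of 17 genes were lower and 1 higher. The RNA sensors Ifih1 (-1.89), Dhx58 (-2.56) and Ddx58 (-1.43), the endosomal receptor Tlr3 (-2.34) and the RNA editor Adar (-0.997) fell, Zbp1 was brought back from 7.43 to 127 CPM against 174 CPM in wild-type cells, and Samhd1 overshot at 0.73. The adaptors Mavs (0.09) and Tmem173, which encodes STING (0.09), did not pass the test. Exons of another gene cover 16.8% of Adar.

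The GBP and IRG GTPases, which act on vacuoles that hold pathogens, were the opposite: of 18 tested, 14 were higher and 1 lower, with a median joint log2 fold change of 1.24. The knockout had lowered them, with a median of -3.66, and the median IFN step was 4.40 in knockout against 1.67 in wild-type cells. The 14 higher members all overshot. Iigp1 was at 125, 151 and 138 CPM in the untreated wild type, 3.02, 3.98 and 5.37 CPM in the untreated knockout and 542, 537 and 536 CPM in the knockout with IFN, where wild-type cells with IFN were at 565, 559 and 552 CPM. Irgm1 overshot at 1.25. Gvin1 was the member below wild type, at -0.83. Members of this family are similar in sequence, and reads that match several could be split among them.

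In MHC class I presentation, 8 of 24 tested genes were higher and 7 lower, with a median of 0.02. These are 33.3% and 29.2%, against 9.94% and 15.1% of all genes. The transporter Tap1 overshot, at 266 ± 17.2 CPM (SD, n = 3) against 133 ± 19.3 CPM (1.00 ± 0.113), the immunoproteasome subunits Psmb9 and Psmb10 at 0.89 and 0.99, the peptidase Erap1 at 0.54, the tapasin relative Tapbpl at 1.17 and the class I transactivator Nlrc5 at 0.82 ± 0.075. Of the heavy chains named, H2-D1 was partly restored at -0.43 ± 0.141, although wild-type replicate 2, at 1370 CPM, overlapped the 1370 to 1450 CPM of the knockout with IFN, and H2-Q6 at -2.21 ± 0.222. H2-K1, at 805, 833 and 777 CPM against 1180, 776 and 1180 CPM, was at -0.38 ± 0.134 (adjusted p = 0.0572) with overlapping groups. The light chain gene B2m met the rule for restored at -0.07 ± 0.23, with 2450, 2490 and 2660 CPM against 2070, 3790 and 2140 CPM. The chaperones Calr (-1.05) and Pdia3 (-0.66) fell. Untreated wild-type replicate 2 was the low library for H2-K1 and the high library for B2m, and without it and untreated knockout replicate 1 the counts were 3 restored and 7 partly restored, against 5 and 4. In MHC class II, the transactivator Ciita rose from 0.058, 0.0563 and 0.0916 CPM to 2.44, 1.51 and 2 CPM (4.80 ± 0.47), while the invariant chain Cd74, its target, stayed at 0.689 against 3.02 CPM on average (-2.13 ± 0.294).

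Among checkpoint ligands, 2 of 12 were higher and 7 lower, or 16.7% and 58.3%, against 9.94% and 15.1% of all genes. Besides Cd274, the poliovirus receptor Pvr rose by 0.29, while Cd276, which encodes B7-H3, fell by 2.42 on the log2 scale, Lgals9, which encodes galectin-9, fell by 1.82, and Cd47, the macrophage inhibitory ligand, fell by 0.47. Among 24 chemokines and cytokines, 7 were higher and 6 lower, or 29.2% and 25%. Neutrophil attractant Cxcl1 went from 32.1, 29 and 31.2 CPM to 266, 269 and 268 CPM (3.12 ± 0.093), with an untreated knockout level of 31.4 CPM on average. Ccl2 rose by 1.60, Csf1 by 0.81 and Lif by 1.06. Cxcl9 overshot, Cxcl10 stayed a little below wild type, and Cxcl11 further below, at -2.10 ± 0.319, with exons of another gene over 41.7% of Cxcl11. Ccl5 (-1.84), Il15 (-1.23), Il18 (-2.30) and Il6 (-3.54) fell. Of 20 NF-kB subunits and targets, 12 were higher (60%) and 2 lower (10%), with a median of 0.47. Among the higher were Nfkbia (0.86), Nfkbie (0.78), Sod2 (0.86) and Nfkb1 (0.48).

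**Figure D4:**
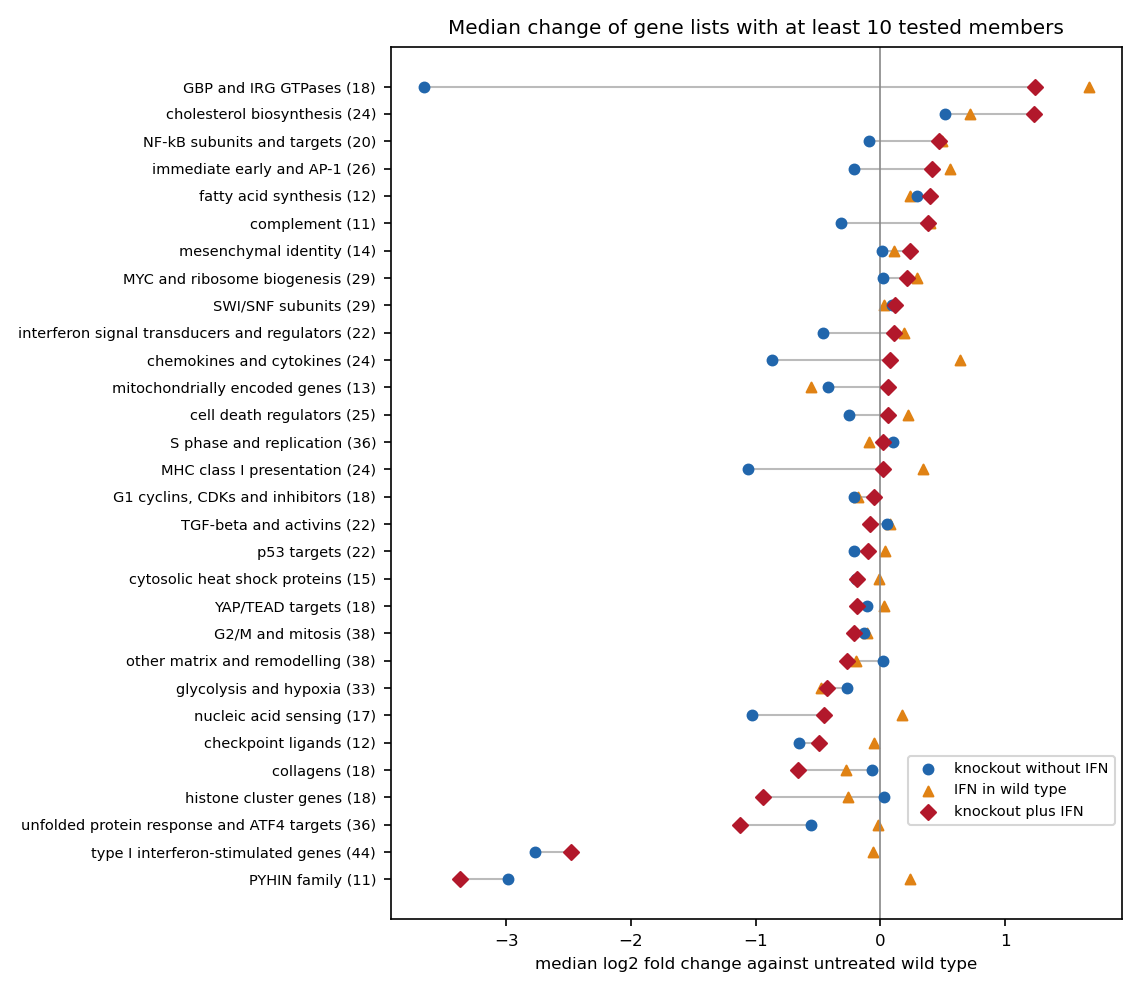
Median log2 fold change against untreated wild-type cells over the tested members (number in brackets) of each gene list with at least 10; circles are the knockout without IFN, triangles IFN in wild-type cells and diamonds the knockout with IFN. The grey line joins knockout without and with IFN: it crosses zero for the GBP and IRG GTPases, ends near zero for MHC class I and stays far below zero for type I interferon-stimulated genes.

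Where the knockout step and the IFN step in wild-type cells had the same sign, the effects could add. IFN in wild-type cells called 777 genes higher and 787 lower (4.66% and 4.72% of genes). Both effects and the joint effect had 1 sign for 255 genes (1.53% of genes), of which 102 rose and 153 fell. The test of additivity asks whether the joint effect departs from the sum of both single effects on the log2 scale, and it called 118 genes above the sum and 52 below (0.708% and 0.312% of genes). Of the 255, 15 lay above the sum, 7 below, and 113 had a 95% interval within 1.5-fold of it. For the other 120 neither could be shown. The count of 255 was 459 without the 2 libraries that stood apart, 164 without untreated wild-type replicate 3 and 137 without wild-type replicate 2 with IFN. The single effects share the untreated wild-type libraries with each other and with the joint effect.

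Fst rose beyond the sum of both single effects. It was at 2.44, 3.01 and 2.96 CPM in the untreated wild type, 5.48, 5.23 and 5.9 CPM in the untreated knockout, 14.6, 15.1 and 13 CPM in wild-type cells with IFN and 56.9, 55.6 and 53.3 CPM with both. No 2 groups overlapped. The joint effect exceeded the sum by 0.98 ± 0.15 (log2, adjusted p = 0.00469). Gja4 rose in the same order, with a departure of 0.56 ± 0.218 that did not pass (adjusted p = 0.369). Col1a1, a chain of type I collagen, fell from 29.1, 24.8 and 24.9 CPM to 4.81, 4.65 and 4.73 CPM in the untreated knockout, 12.1, 11.5 and 13 CPM in wild-type cells with IFN and 2.37, 1.7 and 1.64 CPM with both, a joint log2 fold change of -3.78 ± 0.141 and a departure of -0.20 ± 0.195. Thbs1 did not add: IFN raised it by 1.54 in wild-type cells but by 0.04 in knockout cells, and its departure from the sum was -1.50 ± 0.161 (log2, adjusted p = 0.000257). Both single effects lowered Mx1 and Ifi44. Ifi44 lay above its sum by 1.77 ± 0.234 (adjusted p = 0.00143), and the departure of Mx1, 0.77 ± 0.166, did not pass (adjusted p = 0.0516).

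Cholesterol biosynthesis was raised by both changes. All 24 tested genes were higher in knockout cells with IFN, with a median of 1.23. The medians of the single effects were 0.52 for the knockout and 0.72 for IFN in wild-type cells, their sums had a median of 1.18, and 0 of the 24 departed from the sum by the edgeR test or by DESeq2, with 4 above and 1 below it at an unadjusted p under 0.05. Both single effects and the joint effect passed the test as increases for 13. Insig1, which holds the SREBP pathway in check, was at 34.1, 28.9 and 32.3 CPM in the untreated wild type, 48.4, 43 and 45.6 CPM in the untreated knockout, 64.2, 64.6 and 61.1 CPM in wild-type cells with IFN and 118, 114 and 110 CPM with both. No groups overlapped. Hmgcs1 rose by 1.56 ± 0.078, Cyp51 by 1.82 and Idi1 by 1.67, all enzymes of the pathway, and the transcription factor gene Srebf2 by 1.12 ± 0.097. Exons of another gene cover 12.1% of Hmgcs1. In fatty acid synthesis, 7 of 12 genes were higher and 1 lower, or 58.3% and 8.33%, against 9.94% and 15.1% of all genes. Acly was at 0.86, Elovl6 at 0.77 and Fasn at 0.64. Soat2, which esterifies cholesterol, went the other way, from 16.7, 16 and 17.5 CPM to 1.9, 1.86 and 1.43 CPM (-3.27 ± 0.125).

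The unfolded protein response and ATF4 targets were lowered in knockout cells and lowered again by IFN in them. Of 36 tested, 30 were lower and 0 higher, with a median of -1.13, and 20 moved farther from wild type with IFN. In wild-type cells with IFN, 3 of them were higher and 4 lower, with a median of -0.02, and 8 lay below the sum of the single effects by the test while 0 lay above. Slc7a11, the cystine transporter, went from 46.4, 55.9 and 44.7 CPM to 17.8, 21.1 and 20.5 CPM in the untreated knockout and to 9.9, 7.81 and 8.59 CPM with IFN, with no overlap, while wild-type cells with IFN were at 48.2, 42.7 and 39.1 CPM. Aldh1l2, a mitochondrial folate enzyme, fell by 2.43 on the log2 scale, the pseudokinase Trib3 by 2.32, Ddit4, an inhibitor of mTORC1, by 2.60, and the pro-apoptotic factor Ddit3, also called CHOP, by 1.42. Xbp1, a transcription factor of the unfolded protein response, fell by 2.09 and the chaperone Hspa5 by 1.37. The transcript of Atf4 itself did not pass the test, at -0.19 ± 0.081 (adjusted p = 0.113). Exons of another gene cover 14.1% of Aldh1l2.

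Of 33 glycolysis and hypoxia genes, 21 were lower and 0 higher, with a median of -0.43. Both single effects and the joint effect passed as decreases for 11 of them, and 5 lay above the sum by the test and 0 below. Bnip3, a mitophagy receptor, was at 138, 153 and 135 CPM in untreated wild-type, 59.8, 72.5 and 65.1 CPM in untreated knockout, 46.3, 42.8 and 37.8 CPM in wild-type cells with IFN and 57.7, 57.2 and 55 CPM with both. The knockout with IFN lay above wild type with IFN, 1.53 ± 0.138 above the sum on the log2 scale. The vasodilator Adm was at -2.35 ± 0.311, Ndrg1 at -1.77, the glycolytic enzyme Pgk1 at -0.52 and Gapdh at 0.07, not past the test. Another gene's exons cover 22.3% of Bnip3.

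**Figure D5:**
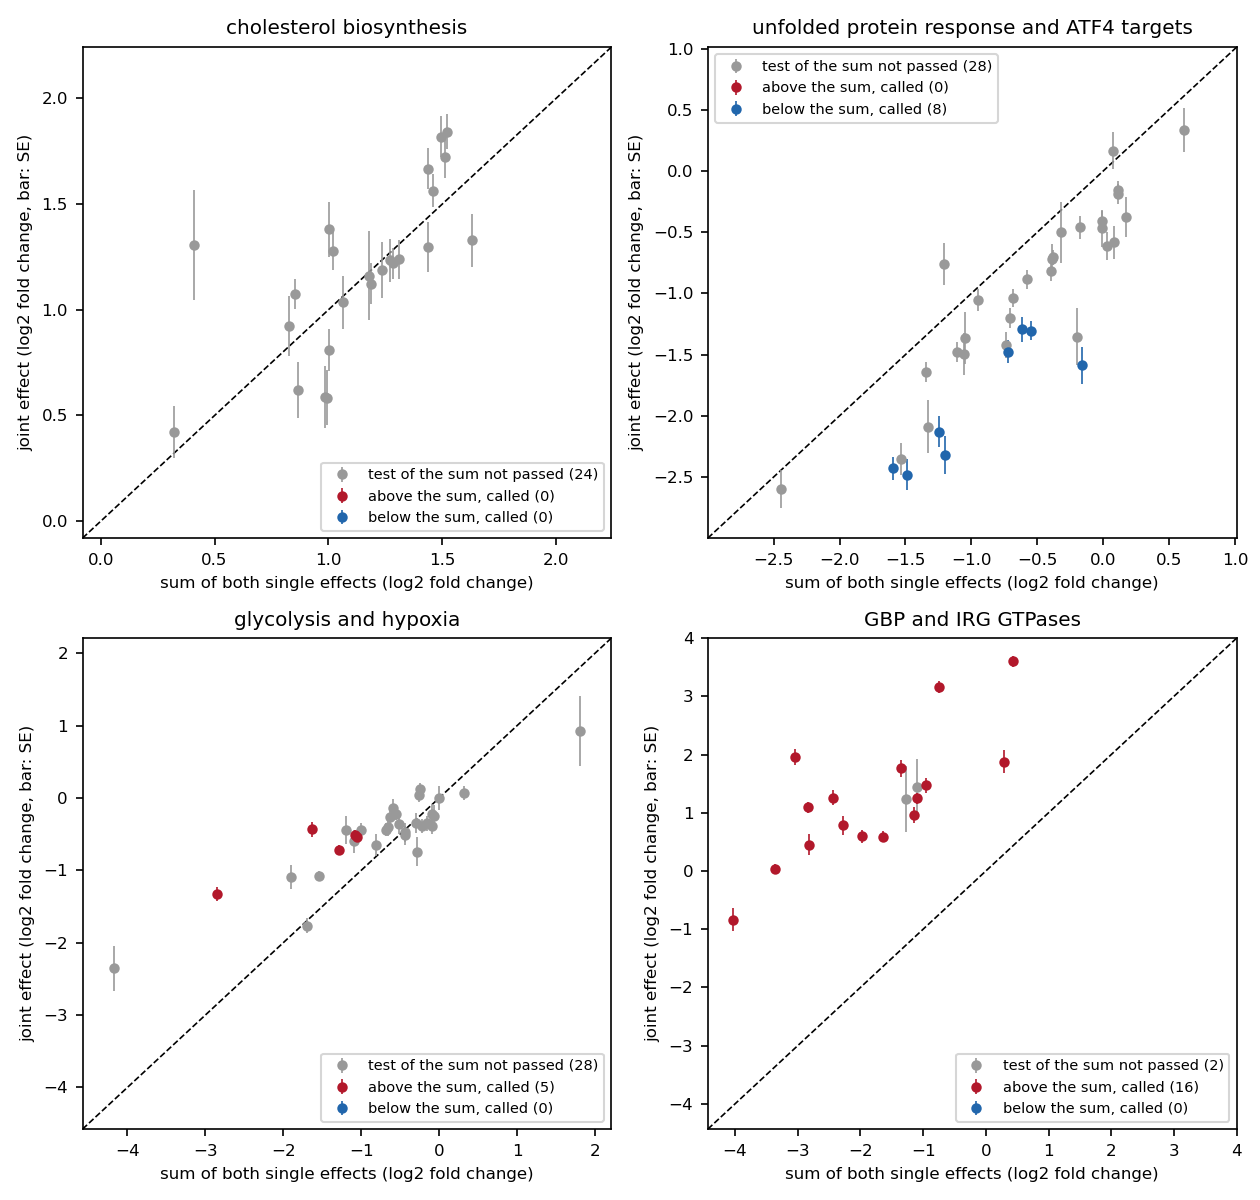
Joint log2 fold change (y axis, bars are standard errors) against the sum of the knockout effect and the IFN effect in wild-type cells (x axis) for the tested members of 4 lists; on the dashed line the effects add. By the test, 0 cholesterol genes were called off the line, 8 unfolded protein response and ATF4 targets were called below it, and 5 glycolysis and hypoxia genes and 16 of 18 GBP and IRG GTPases above it.

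A joint effect without any single step past the test was called for 1169 genes, 571 higher and 598 lower. Their median absolute log2 fold change was 0.529, and for 1152 of them the knockout and IFN steps had the same sign. The joint effect is the sum of these steps, so the rule itself favours steps of 1 sign, and the 1152 show nothing further. Of these 1169, 272 reached 2-fold. The count was 1812 without untreated knockout replicate 1 and 1676 without both libraries that stood apart. Icam1, a leukocyte adhesion molecule, shares the least exonic sequence with other genes of the 4 named, 11.7%, and was at 3.1, 2.25 and 2.26 CPM against 0.857, 0.7 and 0.623 CPM (-1.79 ± 0.327). The knockout step of Icam1 was -0.90 and its IFN step in knockout cells -0.89, neither past the test, while in wild-type cells it was at 3.59, 4.34 and 4.63 CPM with IFN. Kctd12 (-3.89), Ugt1a6b (-2.52) and Abi3 (-1.87) share 64.2%, 60.6% and 75.8% of their exonic bases with other genes, so their values are uncertain, and the call of Kctd12 was lost in 12 of 23 other settings.

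In the extracellular matrix, 11 of 18 collagen genes were lower and 1 higher, or 61.1% and 5.56%, against 15.1% and 9.94% of all genes. Col1a2 fell from 285, 221 and 261 CPM to 97, 99.1 and 97 CPM and Col3a1 from 113, 89.2 and 107 CPM to 32.5, 29.6 and 31.1 CPM. Col1a2 fell with IFN (-1.59 ± 0.085 in knockout cells), while its knockout step of 0.20 ± 0.085 did not pass the test, whereas Col5a3 (-2.59) fell with the knockout and was not restored. Col17a1, of hemidesmosomes, was the member that rose, by 1.05. Of 38 other matrix genes 6 were higher and 15 lower, among them Thbs2 (-3.01), the lysyl oxidase Loxl2 (-2.39) and osteopontin (Spp1, -2.65) below, and tenascin C (Tnc, 2.09) and Thbs1 (3.37) above. Exons of another gene share 18.8% of Spp1. Fibroblast markers include these collagens: 7 of 8 tested were lower and 0 higher, and the summed level of all 11 was 560 to 624 CPM in the untreated wild type and 279 to 283 CPM in knockout cells with IFN. Pdgfra, a defining marker, was expressed in every library at 48.1 to 66.9 CPM. The part of other cells in the collagen result was not tested.

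Immediate early and AP-1 genes were mostly higher, 14 of 26 against 4 lower, with Egr1 at 2.16 ± 0.23, the ERK phosphatase gene Dusp6 at 1.48 ± 0.101 and Batf2 at 1.42. The 14 became 9 without untreated wild-type replicate 3. Egr1 had no knockout step (0.05 ± 0.232). In the cell cycle, 12 of 38 mitotic genes were lower and 1 higher, with a median of -0.21 and Ccnb2 at -1.01 and Aurka at -0.60. Of 18 G1 genes 5 were higher and 2 lower, with Ccnd2 (-1.29) and the p53 target Cdkn1a (-1.01) below. These are 27.8% and 11.1%, against 9.94% and 15.1% of all genes, so decreases were not more frequent here. The 5 higher G1 genes became 3 without knockout replicate 1 with IFN. Mki67 was at 0.10, not past the test. Of 29 MYC and ribosome biogenesis genes 12 were higher and 1 lower. Myc itself was at 0.08, not past the test. Histone cluster genes, whose replication-dependent transcripts are mostly not polyadenylated, had 7 of 18 lower and 0 higher, and Hist1h1c fell from 32.9, 22.9 and 30.3 CPM to 6.16, 6.16 and 5.61 CPM. RNA here was selected by poly-A.

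Among 29 SWI/SNF subunits, 4 were higher and 3 lower, or 13.8% and 10.3%, close to the 9.94% and 15.1% of all genes. Bcl11a, a subunit of some of these complexes, was at 1.16, 2.62 and 1.71 CPM in untreated wild-type cells and had 0 counts in every knockout library, with or without IFN, at least 73.5-fold lower with IFN. Phf10 was at -0.62. The paralogs Smarcd2 and Smarcd3 were at 0.13 and 0.07, neither past the test, and 48.2% of the exonic bases of Smarcd3 lie under another gene. The 4 higher subunits became 1 without untreated wild-type replicate 1, 7 without replicate 2, 2 without knockout replicate 3 with IFN and 11 without both libraries that stood apart.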

How the data were processed

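Poly-A RNA of 12 MC38 samples was sequenced with 150 bp reads. Per the submitters' processing notes, reads were handled with HISAT2 2.1.0, Trimmomatic 0.36, FastQC 0.11.2 and CASAVA, and the build was GRCm38; how reads were counted, the strand setting and the annotation are not given there. The authors deposited counts per gene, whole numbers without normalization, which were used for every test. The authors also deposited TPM values, normalized for gene length and depth, which served as an alternative only.

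Genes passing filterByExpr (minimum count 10, minimum total 15) were fitted with edgeR 4.0.16 in R 4.3.3, with TMM scaling, the quasi-likelihood test, robust dispersion and 1 mean for each of the 4 groups. Of 51826 genes 16676 were tested, p-values were adjusted over all of them by Benjamini-Hochberg, and 0.05 was the threshold for a call. Errors after ± are standard errors and 95% intervals are Wald intervals, unless SD is written. All adjusted p-values in the text are from edgeR. The smallest group size of 3 limits precision, and the library totals are in the report. Counting intervals and floors (3 counts) cover counting error only.

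Groups were taken from the titles. A gene changed by the knockout without IFN was restored when IFN in knockout cells moved it back and the joint 95% interval lay within 1.5-fold of untreated wild type, overshot when the joint effect was called on the other side, partly restored when moved back but still called on the same side, not restored when the IFN step was not called and the joint effect was, and moved farther when both steps and the joint effect had the same direction. Named genes had a mean of at least 2 CPM and, except for restored genes, no overlap between the groups compared. They were the 8 largest increases and decreases and 6 per class (4 for joint effects without a called step). Classes were ranked by the size of the joint effect, but restored genes by that of the knockout step. Without those conditions, a panel and up to 4 members per gene list by the smallest p were named too. Other genes were named after their values were seen, and some genes that met the rule are not reported here. The members and gene lists were chosen with earlier results of these data known. Exon overlap and positions came from GENCODE M21, which held 99.74% of tested genes. The fit was tested on simulated counts. Alternatives were other scalings, filters, DESeq2 1.42.0, limma 3.58.1 on log2(TPM + 0.1) and log2(TPM + 1), other groupings, thresholds and left-out libraries. Replicate numbers were checked as pairs: over 18 pairs of same-numbered libraries deviations correlated at -0.162 to 0.113, so the numbers did not pair the samples.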

Additional observations from a re-analysis of the deposited data

Results flagged for a closer look

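The genes below drew attention because the IFN effect in knockout cells differed from that in wild-type cells, by edgeR's test of the difference itself with Benjamini-Hochberg adjustment over all tested genes. Values in brackets are the effect in knockout minus that in wild-type cells, on the log2 scale, with 3 libraries in each of the 4 groups. The same value is the departure of the joint effect from the sum of both single effects. The test called 118 genes above the sum and 52 below it. Those listed come only from the named genes, chosen by effect size, class and gene list, and are not the full result. No explanation was tested.

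Among the GTPases, the log2 IFN step was larger in knockout cells for Gbp2 (3.91), Gbp3 (3.4), Gbp4 (3.17), Iigp1 (5) and Irgm1 (2.35). The knockout had lowered these genes, so a larger step does not mean a higher level with IFN. With IFN, Gbp2 averaged 707 CPM in knockout and 577 CPM in wild-type cells, but Gbp3 averaged 299 and 444 CPM. Iigp1 rose by 7.02 on the log2 scale in knockout cells and by 2.02 in wild-type cells. Signalling and transcription factor genes with a positive difference were Stat2 (1.09), Irf1 (1.02), Irf7 (1.7), Irf8 (0.93) and Batf2 (1.39). In antigen presentation they were Tap1 (1.44), Tapbp (1.35), Tapbpl (0.64) and Nlrc5 (0.85). Cd274 (1.22) had a larger log2 step in knockout cells too, from a lower start and to a lower level than in wild-type cells. Antiviral and sensing genes with a positive difference were Ifit3 (1.6), Ifit3b (1.43), Ifi44 (1.77), Ifi206 (2.51) and Ifih1 (0.77). Among secreted factors and receptors they were Cxcl10 (2.87), Fst (0.98), C4b (1.81) and Clec2d (1.14). Cxcl9 had a fitted difference of 8.04, but its 3 untreated knockout libraries had 0 counts, so this fitted value does not measure a size.

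Genes of glycolysis, hypoxia and proliferation that IFN lowered in wild-type cells and less in knockout cells were Bnip3 (1.53), Pfkp (0.56) and Mxi1 (0.64). E2f2 (0.63) also had a positive difference. Negative differences were found for the stress and amino acid response genes Slc7a11 (-1), Aldh1l2 (-0.84), Atf3 (-0.88), Gdf15 (-1.37), Gadd45a (-1.09) and Plk2 (-0.92). The cholesterol genes Abca1 (-2.03) and Soat2 (-1.33) and the adhesion and matrix genes Tenm4 (-1.52) and Thbs1 (-1.5) had negative differences as well. So had the histone genes Hist1h1c (-1.24), Hist1h2bc (-1.24) and Hist1h2bg (-1.13) and the heat shock gene Hspa1a (-0.98), which moved by -0.03 with IFN in knockout cells and by 0.95 in wild-type cells.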

How the results depend on the processing

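Of the 23 other fits, the grouping by the genotype and treatment labels cannot change the joint effect, so all joint calls returned there by construction. Under the rest, 70.2% to 99.1% of the 4177 joint calls were called again at the threshold of 0.05. The number called in the opposite direction was 0, and the median of all genes stayed between -0.0108 and 0.0141. Of 187 named genes, 157 were called, 148 of these kept the call in every one of the 23 fits in which the gene was tested and 9 lost it in at least 1. Among the 9 were Cr2, Csf1r, Grhl2, H2-DMa, Ifnar1, Kctd12, Nr1h2 and Pcdhga4. The mitochondrial gene mt-Nd6, at -0.29 and not called, changed sign to 1.09 without untreated wild-type replicate 2 and to 1.08 without both libraries that stood apart, and ranged from -0.68 to 1.09 over single left-out libraries. The cause was not tested.

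Leaving out 1 library at a time gave 3035 to 4659 joint calls, 1349 to 3007 for IFN in knockout and 883 to 1825 in wild-type cells. The classes ranged from 133 to 309 restored, 66 to 110 overshot, 88 to 163 partly restored, 141 to 289 moved farther, 137 to 288 with both effects the same way and 835 to 1812 with a joint effect only. Without both libraries that stood apart, 2493 genes were higher, 2717 changed with IFN in wild-type cells, 265 departed from the sum and 459 changed the same way by both effects. DESeq2's Wald test gave 357 departures from the sum, 390 restored and 417 changed the same way by both. Grouped by the genotype and treatment labels, 1564 genes changed with the knockout, 2835 with IFN in wild-type cells, 50 were partly restored and 788 not restored. At an adjusted p of 0.01 there were 2413 joint calls (823 higher, 1590 lower), 1465 for the knockout, 1108 and 681 for IFN in knockout and wild-type cells, 101 departures from the sum, 103 restored, 49 overshot, 79 partly restored, 737 not restored, 98 moved farther and 92 changed the same way by both; fewer genes pass by construction.

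With the replicate number as a block (replicate block), 3866 genes had a joint effect, 3777 of them the same calls in the same direction; the numbers did not pair the samples. Depth limits genes with a group at 0 counts, whose fitted values do not measure a size.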

Other observations

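Counts for gene groups not described above follow, where 9.94% of all tested genes were higher and 15.1% lower. Of 11 complement genes 5 were higher and 1 lower, of 25 cell death regulators 4 and 3, of 22 p53 targets 3 and 7, and of 18 YAP/TEAD targets 1 and 6. Of 22 TGF-beta and activin genes 2 were higher and 8 lower, and without both libraries that stood apart 5 and 10. Of 36 replication genes 7 were higher and 5 lower, against 10 and 8 without those libraries, and the 5 lower became 1, 2 or 2 without knockout replicate 1, 2 or 3 with IFN and 2 without untreated wild-type replicate 1 or 3. The 13 mitochondrially encoded genes had 0 joint calls by edgeR, 0 at an unadjusted p under 0.05 and 0 by DESeq2, and 11 were higher without those libraries. Of 5 tested epithelial genes 1 was higher and 3 lower. The higher 1 was Muc1, with a joint log2 fold change of 1.94. All 21 listed epithelial genes together were at 9.25 to 10.7 CPM in untreated wild-type cells and 9.43 to 10.7 CPM with both changes. Krt19, a keratin, was at 1.77, 1.41 and 1.71 CPM in untreated wild-type cells and at 0.0451, 0 and 0.0519 CPM in the knockout with IFN, and in wild-type cells with IFN at 0, 0 and 0.21 CPM. Of 14 mesenchymal genes 4 were higher and 1 lower.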
